A study of Homo sapiens with 45 samples.

Results

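The genes described here have symbols that begin with ZSCAN or ZKSCAN and a number, names given to SCAN-domain zinc finger genes. ZNF192P1, a transcribed pseudogene of the SCAN gene cluster on chromosome 6, was added to them. The count table held 32 such members among 28278 gene names, 12 on chromosome 6 and 20 on other chromosomes. By their RefSeq type, ZSCAN16-AS1 and ZKSCAN7-AS1 are long noncoding RNA genes and ZSCAN12P1 is a transcribed pseudogene. They are counted with the protein-coding members below. The 31 ZSCAN and ZKSCAN genes were taken by name, and none was picked by its own value in the comparisons below. The family itself was chosen with earlier results of these data known, so the set is not independent of them. ZNF192P1 was taken because it was higher after HNRNPK depletion, and its values in that comparison are given as a description with no test. The cells were HCT116, an established human colon cancer line, transfected with 25 nM siRNA and collected after 72 hours. RNA was sequenced from 4 libraries of cells given a nontargeting siRNA (siNTC5) and 4 of cells given siRNA against HNRNPK (siHNRNPK), the gene for heterogeneous nuclear ribonucleoprotein K, which recognises C-rich RNA and single-stranded DNA. In each group, replicates 1 and 2 were made with the TruSeq stranded kit and replicates 3 and 4 with the Illumina Ligation kit. In addition there were 2 libraries of nontargeting siRNA labelled Scramble, purified differently and counted in tables of their own. Nothing in the sources used here says that the libraries came from separate cultures, so p-values measure the spread between these libraries, which may be technical. Chromatin was represented by lists of domains called from chromatin immunoprecipitation (ChIP) in the same cell line, 1 list per antibody and siRNA. The lists were of lamin B1, H3K27me3 and H3K9me3 after control and HNRNPK siRNA, and of H3K9me2 after control siRNA. The labels give 3 ChIP samples per siRNA for lamin B1, H3K9me3 and H3K9me2 and 2 for H3K27me3, besides inputs. How these samples were combined into each list is not given in the sources used here.

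SCAN domains are short interaction modules through which zinc finger proteins pair with one another. Many SCAN proteins carry an array of C2H2 zinc fingers that reads DNA, and the ZKSCAN members also carry a KRAB domain, which can bring the corepressor TRIM28 and the H3K9 methyltransferase SETDB1 to chromatin. A group of these genes sits beside the histone genes in the extended major histocompatibility region of chromosome 6. Zinc finger gene clusters are known for H3K9me3, a mark of repressed chromatin, over gene bodies that can still be transcribed. H3K27me3 marks Polycomb-repressed chromatin, whereas H3K9me2 and lamin B1 mark chromatin at the nuclear periphery.

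HNRNPK, the siRNA target, stood between 814 and 967 CPM (read counts scaled to a common library size by TMM) in the siNTC5 libraries and between 157 and 250 CPM in the siHNRNPK libraries, with no overlap. Total counts ran from 12107280 to 23633851 over the 8 libraries. Of 8 colon epithelial markers, EPCAM, CDH1, KRT8, KRT18 and CDX2 were detected in every library and all but CDX2 rose after HNRNPK depletion, while CDX1, VIL1 and CEACAM5 had at most 6 counts in any of the 8. The blood markers PTPRC, CD3E and CD14 had at most 12 counts in any library. Among 4 fibroblast markers, COL1A1 rose from 60.1 ± 13.9 to 97.6 ± 26.1 CPM (SD, n = 4). PDGFRB stood at 0.77 ± 0.15 and 0.51 ± 0.22 CPM and did not pass, and COL1A2 and COL3A1 had at most 6 counts in any of the 8 libraries. Among 3 endothelial markers, VWF rose from 0.63 ± 0.10 to 1.73 ± 0.76 CPM (SD, n = 4), and PECAM1 and CDH5 had at most 6 counts. The part of these markers in the results below was not tested. In these bulk samples, less RNA per cell and fewer cells that make it cannot be told apart.

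Promoter windows were taken from RefSeq (GRCh38.p14), each running from 250 bases before a transcription start to 50 bases after it. Of the 32 genes, 26 had such a window, 41 windows in all; ZNF192P1, ZSCAN26, ZSCAN16, ZSCAN12P1, ZKSCAN2 and ZSCAN5C are named only. The following windows belong to 4 of the chromosome 6 genes whose RNA rose and to the 2 members elsewhere with a rise of at least 0.5 on the log2 scale that lie farthest apart in H3K9me3 state, ZSCAN30 inside a domain and ZSCAN29 far from any. Capitals mark the C-rich word CCCTCCC, the ETS-type word CCGGAAG and the GC-box core GGGCGG, searched on both strands. ZSCAN16-AS1 is read at chr6:28137267-28137566 on the minus strand, ZKSCAN8 at chr6:28141633-28141932 on the plus strand, ZSCAN9 at chr6:28224990-28225289 on the plus strand and ZKSCAN3 at chr6:28349697-28349996 on the plus strand. ZSCAN29 is read at chr15:43370994-43371293 on the minus strand and ZSCAN30 at chr18:35290180-35290479 on the minus strand.
ZSCAN16-AS1: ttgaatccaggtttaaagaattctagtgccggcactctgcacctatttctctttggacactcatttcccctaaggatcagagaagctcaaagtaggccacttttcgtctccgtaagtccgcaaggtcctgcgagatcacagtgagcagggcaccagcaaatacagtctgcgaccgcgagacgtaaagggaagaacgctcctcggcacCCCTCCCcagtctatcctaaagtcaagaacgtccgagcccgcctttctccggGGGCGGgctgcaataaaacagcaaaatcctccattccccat
ZKSCAN8: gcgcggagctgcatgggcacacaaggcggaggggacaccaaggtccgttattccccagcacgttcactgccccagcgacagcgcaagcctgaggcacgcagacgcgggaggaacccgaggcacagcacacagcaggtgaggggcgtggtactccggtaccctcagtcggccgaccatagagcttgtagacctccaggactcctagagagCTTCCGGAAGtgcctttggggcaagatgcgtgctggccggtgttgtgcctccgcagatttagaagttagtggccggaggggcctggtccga
ZSCAN9: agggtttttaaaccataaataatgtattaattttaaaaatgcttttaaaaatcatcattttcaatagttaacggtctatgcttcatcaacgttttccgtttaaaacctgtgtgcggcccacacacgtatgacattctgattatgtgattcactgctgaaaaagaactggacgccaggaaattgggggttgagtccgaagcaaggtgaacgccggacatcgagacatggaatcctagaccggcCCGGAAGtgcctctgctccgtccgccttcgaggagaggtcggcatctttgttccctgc
ZKSCAN3: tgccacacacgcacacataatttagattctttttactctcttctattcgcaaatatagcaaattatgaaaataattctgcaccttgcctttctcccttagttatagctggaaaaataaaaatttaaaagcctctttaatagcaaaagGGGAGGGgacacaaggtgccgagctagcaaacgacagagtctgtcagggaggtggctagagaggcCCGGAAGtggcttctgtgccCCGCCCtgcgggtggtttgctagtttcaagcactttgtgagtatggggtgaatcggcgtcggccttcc
ZSCAN29: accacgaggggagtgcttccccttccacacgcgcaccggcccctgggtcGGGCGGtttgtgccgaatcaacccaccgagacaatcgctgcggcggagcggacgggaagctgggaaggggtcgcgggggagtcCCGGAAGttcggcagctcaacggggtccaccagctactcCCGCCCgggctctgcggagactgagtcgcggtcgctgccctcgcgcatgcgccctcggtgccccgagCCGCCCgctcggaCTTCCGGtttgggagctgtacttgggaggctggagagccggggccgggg
ZSCAN30: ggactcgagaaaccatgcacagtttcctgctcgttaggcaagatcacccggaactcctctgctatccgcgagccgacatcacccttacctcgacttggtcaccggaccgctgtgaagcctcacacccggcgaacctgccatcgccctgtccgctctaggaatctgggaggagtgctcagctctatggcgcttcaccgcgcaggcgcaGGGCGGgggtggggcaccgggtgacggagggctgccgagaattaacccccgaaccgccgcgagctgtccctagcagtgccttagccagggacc

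CCGGAAG occurred in 39.0% of the 41 member windows and in 10.3% of 35116 RefSeq windows of the same length. It was found for 15 of the 26 genes. Among these, ZKSCAN8, where the word and its reverse overlap around 1 palindrome, ZSCAN9, ZKSCAN3, ZSCAN29, ZSCAN21 and ZSCAN5A rose after HNRNPK depletion. ZSCAN12, ZSCAN31, ZSCAN20, ZSCAN25, ZSCAN32 and ZKSCAN1 also had the word and did not pass, and ZSCAN22 had it and fell. The windows of ZSCAN30, ZSCAN16-AS1 and ZKSCAN5, which rose, lacked it. GGGCGG occurred in 56.1% of member windows against 45.0% of all windows. CCCTCCC occurred in 14.6% against 26.6%, and was found for 5 of the 26 genes. On chromosome 6, 6 of the 15 windows held CCGGAAG and 2 held CCCTCCC, those of ZSCAN16-AS1 and ZKSCAN3. These are matches of letters in the windows and were not tested against the RNA values.

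ZNF192P1 lies at chr6:28161761-28169595 (GRCh38) and is listed in RefSeq as a transcribed pseudogene under the symbol ZKSCAN8P1, next to its protein-coding relative ZKSCAN8. Its level was 1.90, 2.26, 2.80 and 2.57 CPM in siNTC5 replicates 1 to 4 and 15.0, 16.6, 20.1 and 19.4 CPM in siHNRNPK replicates 1 to 4. Every knockdown library was above every control, and the means were 2.38 ± 0.39 and 17.7 ± 2.39 CPM (SD, n = 4), a ratio of 7.45. The log2 fold change was 2.89 in edgeR, 2.91 within the TruSeq libraries and 2.87 within the Ligation libraries. These values led to its choice. How reads that match both ZNF192P1 and ZKSCAN8 were counted is not given in the sources used here, so the split between this pseudogene and its relative is uncertain.

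Of the 11 chromosome 6 members chosen by name, 10 had enough counts to be tested, and 5 of these 10 rose after HNRNPK depletion, none fell and 5 did not pass (edgeR quasi-likelihood test with Benjamini-Hochberg adjustment over all 13933 tested genes, threshold 0.05). Over all tested genes 71.5% were called in either direction, 35.5% higher and 36.1% lower, so the count for chromosome 6 is read against a background in which most genes changed. The 5 that rose were also the 5 whose knockdown libraries all lay above every control; over all tested genes 28.5% were separated in this way and 28.0% in the opposite way.

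ZSCAN16-AS1, a long noncoding RNA gene at chr6:28121795-28137316 that contains ZSCAN16 within its span, had the largest change among the chromosome 6 members tested. Its level was 1.60, 2.00, 1.67 and 1.97 CPM in siNTC5 replicates 1 to 4 and 4.35, 4.83, 3.96 and 4.94 CPM in siHNRNPK replicates 1 to 4. The groups stood well apart, and the log2 fold change was 1.30 ± 0.18 (SE; edgeR adjusted p = 3.1e-06). ZSCAN16, a zinc finger gene within it at chr6:28124609-28130082, stood at 3.56, 5.18, 5.06 and 4.71 CPM in controls and at 6.13, 5.65, 4.64 and 4.53 CPM in knockdown libraries. Its groups overlapped and it did not pass the test, with a log2 fold change of 0.18 ± 0.16 (edgeR adjusted p = 0.326). The strand used for counting is not given in the sources used here. How reads from the stretch that this pair shares were assigned is therefore uncertain.

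ZKSCAN8 encodes a zinc finger protein with SCAN and KRAB domains and lies at chr6:28141635-28159460, beside ZNF192P1. Its level was 84.8, 84.3, 85.1 and 86.1 CPM in siNTC5 replicates 1 to 4 and 132, 135, 127 and 126 CPM in siHNRNPK replicates 1 to 4. The controls lay within a narrow band and every knockdown library was above it, with a log2 fold change of 0.61 ± 0.04 (SE; edgeR adjusted p = 6.76e-10). ZSCAN26, a zinc finger gene at chr6:28267143-28278204, rose from 13.6, 13.2, 13.6 and 14.7 CPM to 21.3, 21.3, 22.7 and 22.6 CPM. All 4 knockdown libraries were above the controls, with a log2 fold change of 0.67 ± 0.08 (edgeR adjusted p = 4.04e-07).

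ZKSCAN3, at chr6:28349878-28369172, encodes a SCAN and KRAB zinc finger protein known as a repressor of autophagy and lysosome genes. It rose from 17.8, 20.0, 19.7 and 21.5 CPM in siNTC5 replicates 1 to 4 to 27.2, 23.5, 31.8 and 27.1 CPM in siHNRNPK replicates 1 to 4. The groups did not overlap, although the lowest knockdown library was close to the highest control, and the log2 fold change was 0.47 ± 0.08 (edgeR adjusted p = 6.22e-05). Its gene overlaps ZSCAN31, at chr6:28324737-28356271, which stood at 7.06, 6.35, 8.66 and 8.92 CPM in controls and at 8.57, 8.76, 8.60 and 8.82 CPM after knockdown. ZSCAN31 did not pass (log2 fold change 0.18 ± 0.12, edgeR adjusted p = 0.168), and its controls spread more widely than its knockdown libraries. How reads from the stretch that ZKSCAN3 and ZSCAN31 share were assigned is likewise uncertain. ZSCAN9, at chr6:28225240-28233487, rose least of the 5, from 12.6, 15.1, 15.1 and 18.1 CPM to 18.1, 18.5, 19.6 and 21.8 CPM. The highest control nearly met the lowest knockdown library, and the log2 fold change was 0.36 ± 0.09 (edgeR adjusted p = 0.00184).

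The remaining 3 tested members of the cluster had negative log2 fold changes and none passed. ZKSCAN4, a SCAN and KRAB zinc finger gene at chr6:28241697-28259211, stood at 7.17, 10.6, 6.86 and 9.31 CPM in controls and at 8.24, 6.61, 8.18 and 8.32 CPM after knockdown (log2 fold change -0.14 ± 0.15, edgeR adjusted p = 0.418). ZSCAN12, at chr6:28378821-28399747, stood at 1.84, 1.88, 1.87 and 0.88 CPM and at 1.12, 1.78, 1.69 and 1.15 CPM (-0.17 ± 0.28, edgeR adjusted p = 0.603). The groups overlapped for both genes. ZSCAN12P1, its transcribed pseudogene at chr6:28090807-28095715, stood at 5.46, 7.56, 7.0 and 5.91 CPM and at 5.47, 3.86, 5.65 and 5.85 CPM (-0.33 ± 0.16, edgeR adjusted p = 0.0668). The groups thus overlapped for each of the 5 chromosome 6 members that did not pass. ZSCAN12P1 was called lower under 3 of 18 alternatives: with no filter on low counts, without siNTC5 replicate 1 and without siNTC5 replicate 4 (edgeR adjusted p = 0.0217, 0.0218 and 0.0397).

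**Figure D1:**
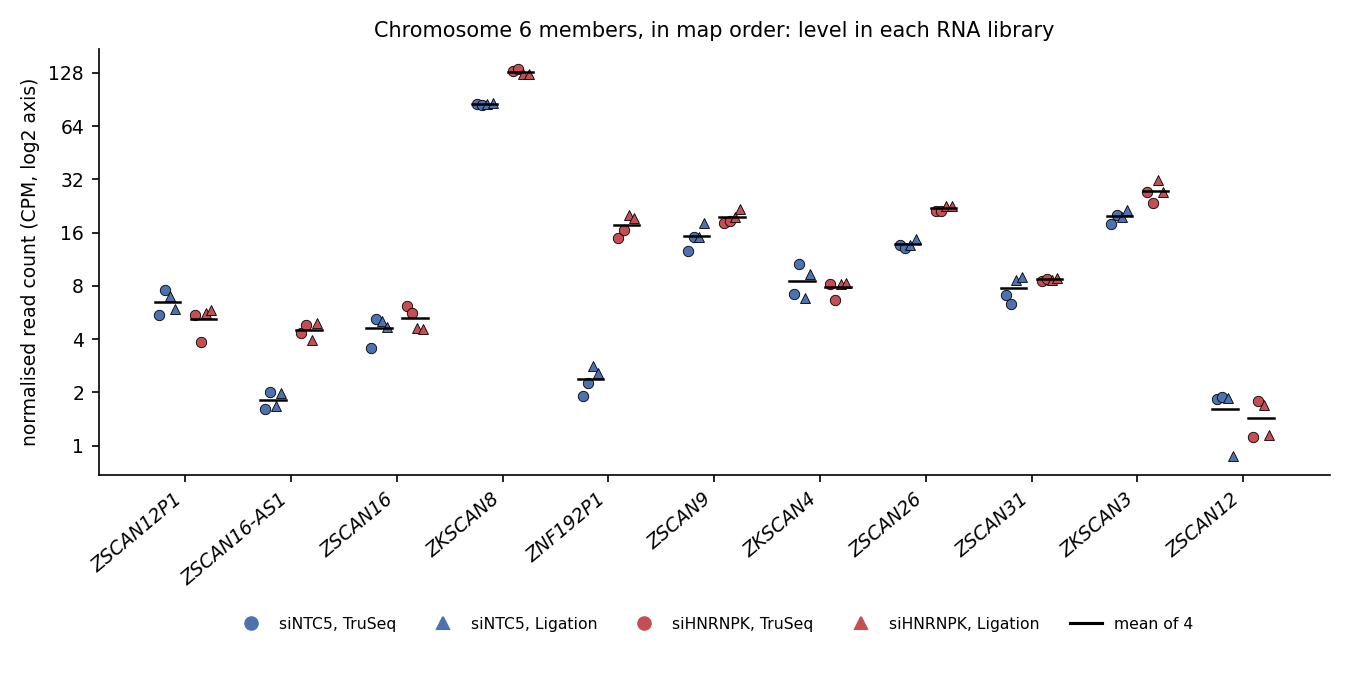
Normalised read count in CPM (log2 axis) of the 11 chromosome 6 members with enough counts, in map order, in 4 siNTC5 (blue) and 4 siHNRNPK libraries (red); circles are TruSeq and triangles Ligation libraries, and black lines are means of 4. ZNF192P1, ZSCAN16-AS1, ZKSCAN8, ZSCAN26, ZKSCAN3 and ZSCAN9 have all red points above all blue points; in the other 5 genes they overlap.

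On the other chromosomes 12 of 20 members had enough counts, and 7 of these 12 were called, 6 higher and 1 lower, beside 71.5% of all genes (35.5% higher and 36.1% lower). ZSCAN30, a zinc finger gene at chr18:35251062-35290229, changed most. Its level was 12.2, 11.7, 16.3 and 15.1 CPM in siNTC5 replicates 1 to 4 and 22.3, 26.1, 25.5 and 23.1 CPM in siHNRNPK replicates 1 to 4. The groups were apart, with a log2 fold change of 0.83 ± 0.10 (SE; edgeR adjusted p = 3.18e-07). Its RefSeq gene overlaps ZNF397, another SCAN gene, which fell from 52.8 ± 5.70 to 40.3 ± 2.34 CPM (SD, n = 4; log2 fold change -0.39 ± 0.06, edgeR adjusted p = 1.34e-05). The overlapping genes thus differed in direction against siNTC5, but against Scramble both were higher, by 0.94 for ZSCAN30 (edgeR adjusted p = 5.47e-07) and 0.85 for ZNF397 (edgeR adjusted p = 2.5e-08).

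ZSCAN5A, at chr19:56221303-56368278, stood at 6.05, 5.85, 6.40 and 6.02 CPM in controls and at 12.4, 10.2, 9.10 and 8.98 CPM after knockdown. All knockdown libraries were higher, those made with the TruSeq kit most (log2 fold change 0.75 ± 0.12, edgeR adjusted p = 2.21e-05). ZSCAN5A spans or overlaps 12 other RefSeq genes and has the near copies ZSCAN5B and ZSCAN5C, so its count is uncertain. ZSCAN29, at chr15:43358175-43371043, stood at 44.9, 48.8, 44.6 and 40.7 CPM and at 73.2, 69.7, 70.4 and 71.8 CPM (0.67 ± 0.06, edgeR adjusted p = 6.8e-09). It overlaps no other RefSeq gene, and its groups were widely separated.

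Smaller changes were found for ZKSCAN5 and ZKSCAN2, which encode SCAN and KRAB zinc finger proteins, with log2 fold changes of 0.36 and 0.29 (edgeR adjusted p = 1.12e-04 and 2.65e-04). ZKSCAN5 did not pass when the Scramble libraries were added as controls (log2 fold change 0.25, edgeR adjusted p = 0.0715), and against the Scramble libraries themselves its log2 fold change was 0.003 (edgeR adjusted p = 0.976). ZSCAN21 rose by 0.31 (edgeR adjusted p = 0.0246) and ZSCAN22 fell by 0.26 on the log2 scale (edgeR adjusted p = 0.0479), both with overlapping groups. These 2 calls were lost under 9 and 13 of 18 alternatives, in which the log2 fold change ran from 0.23 to 0.40 for ZSCAN21 (edgeR or DESeq2 adjusted p from 0.0122 to 0.322) and from -0.33 to -0.16 for ZSCAN22 (0.0117 to 0.376). Leaving out siNTC5 replicate 1, 3 or 4 or siHNRNPK replicate 1 or 3 ended the call of ZSCAN21 (edgeR adjusted p from 0.0504 to 0.0977). Leaving out siNTC5 replicate 2, 3 or 4 or siHNRNPK replicate 2 or 3 ended that of ZSCAN22 (0.0651 to 0.158). Against Scramble neither passed, with log2 fold changes of 0.20 for ZSCAN21 and 0.09, the opposite direction, for ZSCAN22 (edgeR adjusted p = 0.196 and 0.549). ZKSCAN1, the member with most counts, stood at 133, 144, 155 and 162 CPM in controls and at 147, 155, 161 and 162 CPM after knockdown. It did not pass (log2 fold change 0.08 ± 0.05, edgeR adjusted p = 0.143), and neither did ZSCAN20, ZSCAN32, ZSCAN2 or ZSCAN25, with log2 fold changes of 0.23, 0.10, 0.08 and 0.02. ZSCAN20 was closest to the threshold (edgeR adjusted p = 0.0594) and was called under 5 of 18 alternatives.

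**Figure D2:**
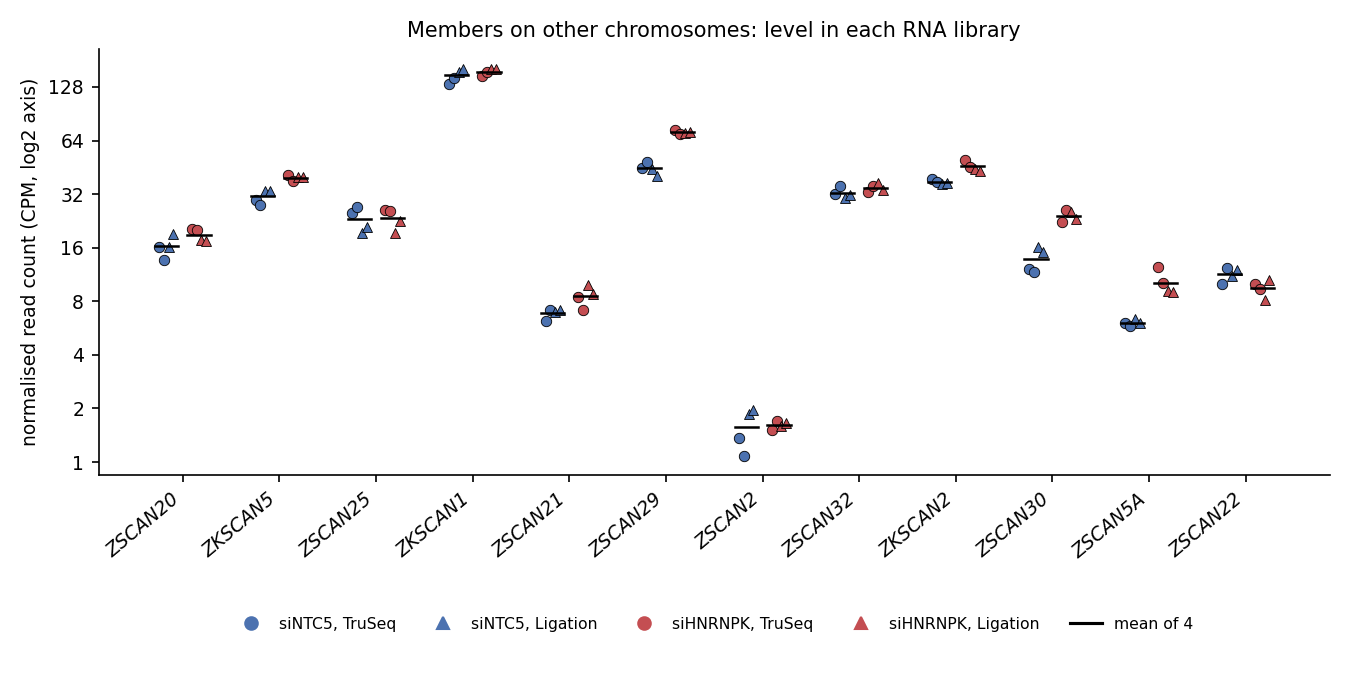
Normalised read count in CPM (log2 axis) of the 12 members on other chromosomes with enough counts, in 4 siNTC5 (blue) and 4 siHNRNPK libraries (red), drawn as for the chromosome 6 members. ZKSCAN5, ZSCAN29, ZKSCAN2, ZSCAN30 and ZSCAN5A have all red points above all blue points, and the other 7 overlap.

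Set against the other members, the chromosome 6 cluster without ZNF192P1 had nearly the same median change. The median log2 fold change was 0.27 over its 10 tested members, 0.26 over the 12 elsewhere and -0.004 over all 13933 genes. Taken in each knockdown library against the control mean of its kit, the cluster's median was above that of the other members by 0.079, 0.053, 0.060 and 0.022 in replicates 1 to 4 (SD 0.024). The difference of the medians from the full model was 0.01, below all 4 of these values, and it ran from -0.182 to 0.115 over the alternatives, the highest without siNTC5 replicate 2. Groups did not overlap, with knockdown higher, for 5 of 10 cluster members and 5 of 12 others, beside 28.5% of all genes. ZNF192P1 was chosen for its rise and is not ranked with these. Among the members chosen by name, the largest log2 fold change in the cluster was 1.30, that of ZSCAN16-AS1. The largest elsewhere was 0.83. Of the 22 tested members chosen by name, ZSCAN16-AS1 alone reached an absolute log2 fold change of 1 with an adjusted p under 0.05. Among the members without an overlapping RefSeq gene, 5 of 10 rose, 3 of them among 6 in the cluster, beside 35.5% of all genes.

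The sign of the log2 fold change was the same in both library kits for 16 of the 22 members and opposite for 6 that did not pass over both kits: ZSCAN20, ZSCAN16, ZKSCAN4, ZSCAN31, ZSCAN12 and ZSCAN2. Within the TruSeq libraries 11 of the 22 members rose and none fell, where 57.8% of all genes were called (28.5% higher and 29.2% lower). Within the Ligation libraries 11 rose and none fell, where 68.1% were called (33.8% higher and 34.3% lower); in each kit 5 of the 11 were chromosome 6 members. The calls of 10 members were shared, ZSCAN20 was called in TruSeq alone and ZSCAN21 in Ligation alone. A test of the interaction of kit and treatment in edgeR called 0 of 22 members, against 0.129% of all genes (0.0718% higher and 0.0574% lower in the Ligation libraries). At an unadjusted p under 0.05 it gave 2, where 1639 of all 13933 genes were under the same limit. These were ZSCAN30 and ZSCAN20, with log2 differences of -0.38 and -0.48 (Ligation minus TruSeq), and DESeq2 also called 0.

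The Scramble libraries gave a second set of controls, which shares the knockdown libraries with the comparison above. Against Scramble, 13 of the 22 members were called in edgeR, 11 higher and 2 lower, where 81.2% of all genes were called (38.8% higher and 42.4% lower). On chromosome 6 the count was 5 of 10, all higher: ZSCAN16-AS1, ZSCAN26, ZKSCAN8, ZKSCAN3 and ZSCAN9, with log2 fold changes of 1.10, 0.88, 0.95, 0.61 and 0.67. ZNF192P1 stood at 0.62 and 0.69 CPM in the Scramble libraries when all 10 libraries were normalised together, and the log2 fold change against them was 4.57, given as a description. Scramble and siNTC5 themselves differed for 11 of 22 members (4 higher and 7 lower in Scramble; 69.3% of all genes were called, 37.5% higher and 31.8% lower). ZNF192P1 was lower in Scramble than in siNTC5 by 1.68 on the log2 scale. The members lower in the knockdown than in Scramble were ZSCAN2 and ZKSCAN1, with log2 fold changes of -3.75 and -0.81. For ZSCAN2 the Scramble tables held 893 and 938 counts, and no library of the table of 8 held more than 36. The siRNA, the purification kit and the count table cannot be told apart in this difference.

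**Figure D3:**
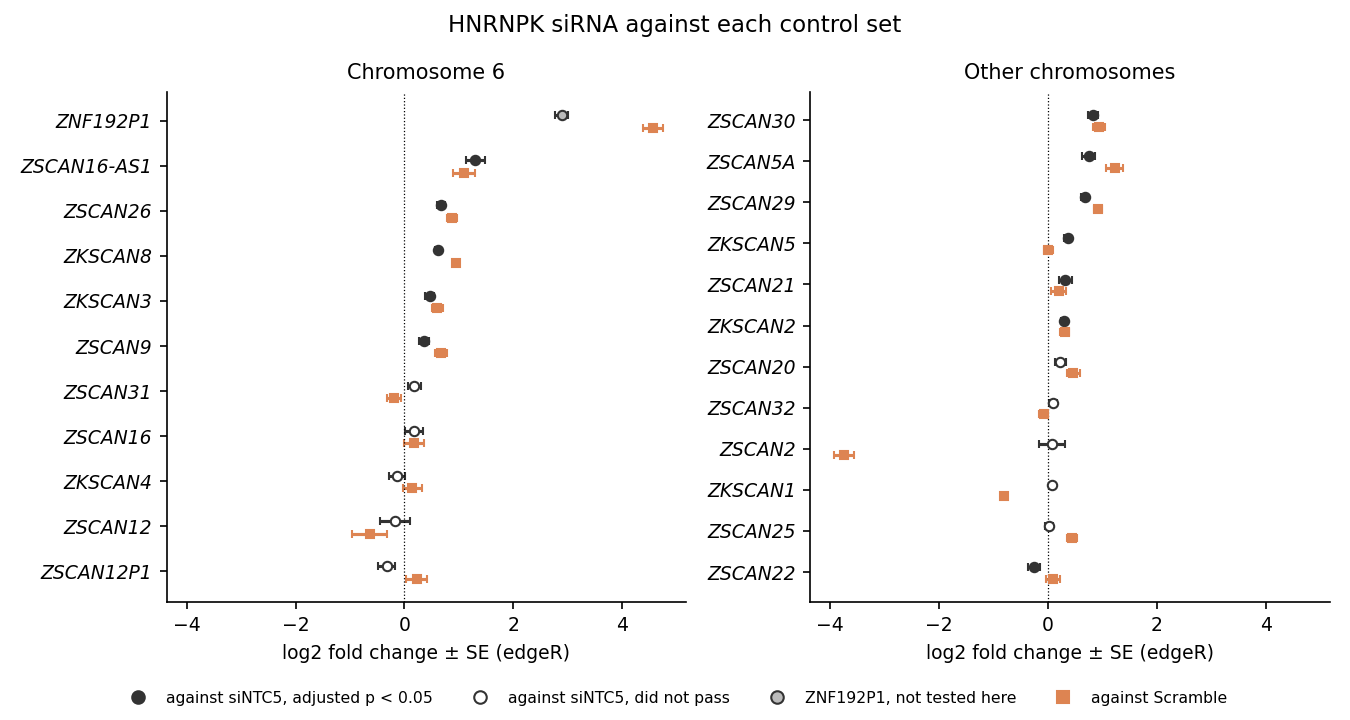
Log2 fold change with its standard error from edgeR for the 23 members with enough counts, chromosome 6 left and other chromosomes right; circles are siHNRNPK against siNTC5 (filled where the adjusted p was under 0.05, open where not, grey for ZNF192P1) and orange squares siHNRNPK against Scramble, which shares the knockdown libraries. ZNF192P1 stands at 2.89 and 4.57, and ZSCAN2 at 0.08 and -3.75.

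The 12 chromosome 6 members lie within chr6:28090807-28443491 (GRCh38), a span of 352.7 kb. No lamin B1, H3K27me3 or H3K9me2 domain touched this span in any list. The nearest in the control lists were 3871 kb away for lamin B1, 646.5 kb for H3K27me3 and 3906 kb for H3K9me2. H3K9me3 was the mark found there, in 2 domains. In control cells the first ran from chr6:28160001-28225000 (65 kb) and held all of ZNF192P1, and the second ran from chr6:28295001-28375000 (80 kb) and held all of ZSCAN31 and ZKSCAN3. In HNRNPK siRNA cells they ran from chr6:28145001-28235000 (90 kb) and from chr6:28280001-28415000 (135 kb). ZNF192P1 thus lay wholly inside an H3K9me3 domain in both lists. The 7.45-fold difference of its RNA led to its choice, and a link between its domain state and its RNA was not tested.

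Both domains were longer at each end in the HNRNPK siRNA list, the first by 15 and 10 kb and the second by 15 and 40 kb. The covered part of the span was 145 kb (41.1%) in the control list and 225 kb (63.8%) in the knockdown list. The length ratios were 1.39 and 1.69. Over the 845 of 895 control H3K9me3 domains that matched 1 knockdown domain, the median ratio was 1.09, with quartiles of 1.01 and 1.31, and 83.8% were longer. The longer domains took in 81.1% of ZKSCAN8 and all of ZSCAN9 and ZSCAN12, which were at 0% in the control list. ZSCAN12P1, ZSCAN16-AS1, ZSCAN16, ZKSCAN4, ZSCAN26 and ZSCAN23 were outside in both lists. With 1 list per siRNA and the depth behind each unknown, these lengths have no replicate error, and whether they differ beyond it was not tested.

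The printed promoter windows can be placed on this map. The start of ZKSCAN8 lay 18.1 kb outside the control domain and 3.1 kb outside the knockdown domain, so the part of the gene that the knockdown domain covered did not include its start. The start of ZSCAN9 lay 0.2 kb outside the control domain and inside the knockdown domain. ZKSCAN3 started inside a domain in both lists and ZSCAN16-AS1 outside in both. Of these 4 genes whose RNA rose, 1 start was thus in a control domain and 2 in a knockdown domain. Among the cluster genes with a window that were not called, ZSCAN31 started inside a domain in both lists. ZSCAN12 started inside a domain in the knockdown list only, and ZKSCAN4 and ZSCAN23 started outside in both.

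**Figure D4:**
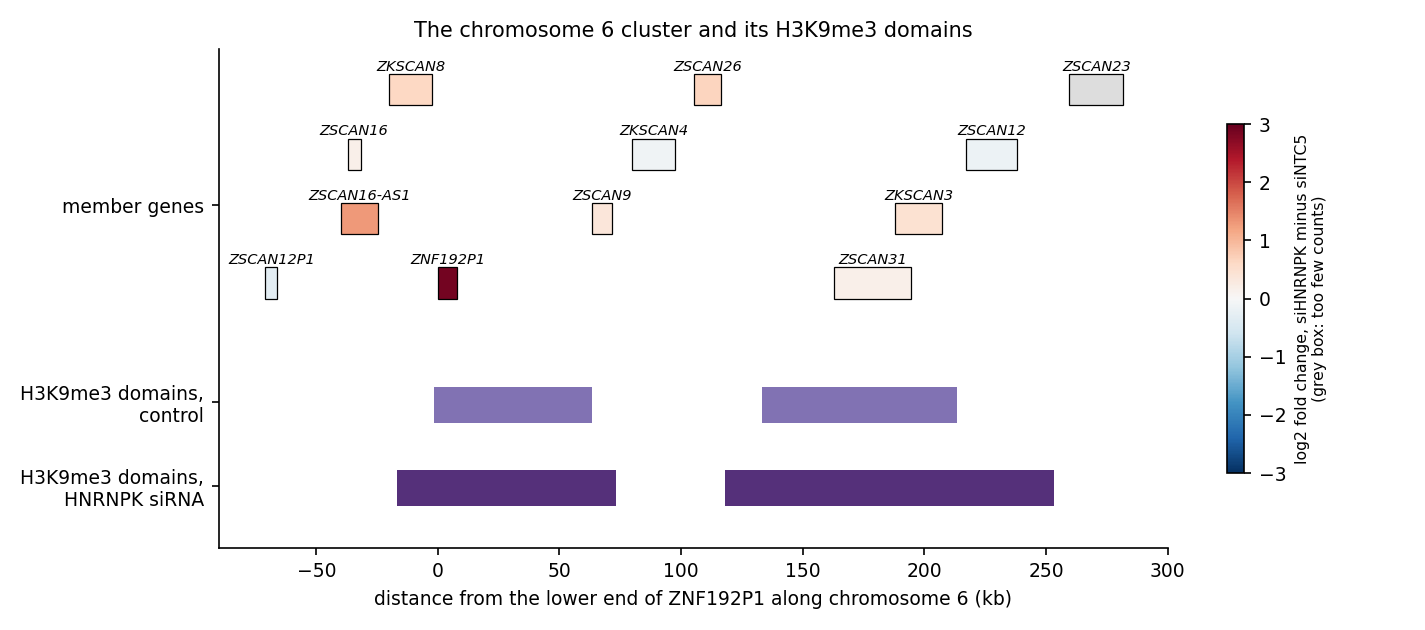
Map of the chromosome 6 cluster in kb from the lower end of ZNF192P1; boxes are member genes (stacked for legibility, coloured by log2 fold change, ZSCAN23 grey for too few counts) and bars are H3K9me3 domains of the control and HNRNPK siRNA lists. Both domains are longer in the HNRNPK siRNA list, 90 against 65 kb and 135 against 80 kb, and ZNF192P1 is inside the first in both.

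Over all 32 members, 10 had at least 50% of the gene body in an H3K9me3 domain in the control list (9.38% of all 27618 positioned names did) and 14 in the knockdown list (13.2%). On chromosome 6 the numbers were 3 and 6 of 12, and elsewhere 7 and 8 of 20. Outside the cluster these were ZKSCAN7 and ZKSCAN7-AS1 on chromosome 3, ZSCAN32 on chromosome 16, ZSCAN30 on chromosome 18, and ZSCAN4, ZSCAN1 and ZSCAN18 on chromosome 19, to which the knockdown list added ZSCAN20 on chromosome 1. The cluster's control domains had scores under the median of their list: counting only domains at or above it, the control number fell from 3 to 0 of 12, while 7 of the 20 members elsewhere stayed in. In the knockdown list all 6 cluster members stayed in when only domains at or above that list's own median were counted. The medians of the lists may differ, so these counts do not rest on a common score. Scores have no stated unit and were not compared between lists.

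Other marks concerned few members, none of them on chromosome 6. Lamin B1 domains covered ZSCAN4, ZSCAN1 and ZSCAN18 in the control list (13.0% of all names were covered) and ZSCAN1 and ZSCAN18 in the knockdown list (9.15%). H3K9me2 covered the same 3 genes in its control list (9.0%). ZSCAN5A was covered in part only, with 32.8% of its body in lamin B1 domains in the control list and 5.6% in the knockdown list. Its share in H3K9me2 domains was 22.6% in the control list. H3K27me3 covered ZKSCAN7 in the control list (22.7%) and no member in the knockdown list (21.0%). ZSCAN4 is known for bursts of expression in early embryos. In all 8 libraries ZSCAN1 and ZSCAN18 had 0 counts, and ZSCAN4 had 1 count in 1 library.

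**Figure D5:**
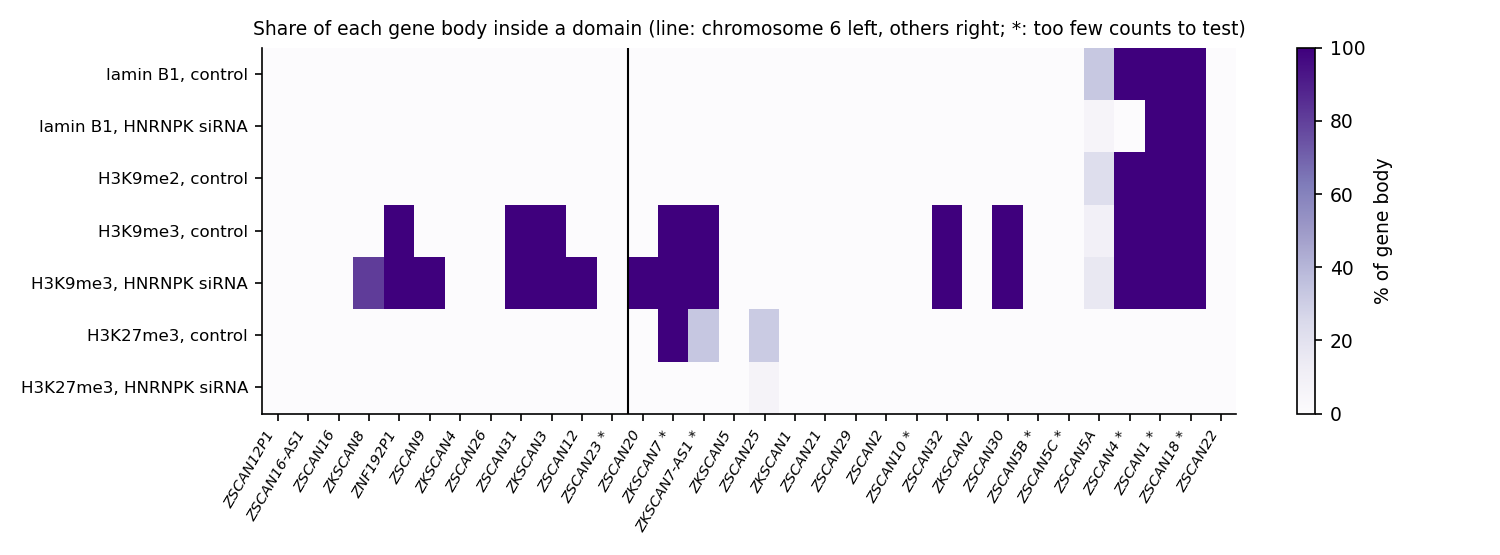
Percent of each member's gene body inside the domains of 7 lists (rows; lamin B1, H3K9me2, H3K9me3 and H3K27me3, control or HNRNPK siRNA), with the 12 chromosome 6 members left of the line and 20 others right; an asterisk marks a gene with too few counts to test. Chromosome 6 members are coloured in the H3K9me3 rows only, 3 in the control list and 6 in the knockdown list.

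Domain state and RNA change were set side by side for the 22 tested members chosen by name. Of 4 in control H3K9me3 domains, 2 rose, ZKSCAN3 and ZSCAN30, and ZSCAN31 and ZSCAN32 did not pass. Of 4 in a knockdown domain only, 2 rose, ZKSCAN8 and ZSCAN9, and ZSCAN12 and ZSCAN20 did not pass. The other 14 had less than 50% of the gene body in H3K9me3 domains in both lists. Of these 14, 7 rose, 1 fell and 6 did not pass. ZSCAN5A, among the 7 that rose, had 9.0% of its body in H3K9me3 domains in the control list and 15.8% in the knockdown list. Its first RefSeq start lay inside an H3K9me3 domain in both lists, and its other starts lay outside. Over all tested genes 71.5% were called, 35.5% higher. The medians of the log2 fold change were 0.32, 0.29 and 0.24. With so few genes in each class these are descriptions, and the difference between classes was not tested.

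In 9 of the 32 members there were too few counts to test. ZKSCAN7, ZKSCAN7-AS1, ZSCAN23, ZSCAN1 and ZSCAN18 had 0 counts in all 8 libraries, where 3 counts correspond to 0.127 to 0.248 CPM. ZSCAN10, a gene known from pluripotent cells, ZSCAN4, ZSCAN5B and ZSCAN5C had at most 3 counts in any of the 8. The Scramble tables held 59209169 and 55007171 counts in total, and ZSCAN23, ZSCAN1 and ZSCAN18 had 0 counts there too. ZSCAN4 had 4 and 0, ZSCAN10 had 2 and 0, and ZSCAN5B had 2 and 2 counts in them. ZKSCAN7 had 20 and 14 counts in the Scramble tables. Its RefSeq gene overlaps ZKSCAN7-AS1, which those tables do not list, and ZSCAN5C is not listed either. A count of 0 in the table of 8 need not mean little RNA: ZNF197, which ZKSCAN7-AS1 overlaps, had 0 counts in all 8 libraries and 2668 and 2752 in the Scramble tables. TRIM27, near the cluster on chromosome 6, had at most 1 count in any of the 8 and 4417 and 3824 in the Scramble tables. Whether low depth or the way of counting sets the zeros of the members was not tested. Of the 12 chromosome 6 members, ZSCAN23 alone was not tested. Of the 9 members not tested, 5 lay in control H3K9me3 domains, beside 9.38% of all 27618 positioned names, tested or not. They were ZKSCAN7 and ZKSCAN7-AS1, which overlap each other, and ZSCAN4, ZSCAN1 and ZSCAN18. A link between domain state and low counts was not tested.

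SCAN genes outside the ZSCAN and ZKSCAN names moved in both directions. Of 29 listed, 25 were tested, 8 rose, 8 fell and 9 did not pass, with a median log2 fold change of -0.08; over all genes 35.5% were higher and 36.1% lower. The largest rises were of ZNF274, which binds zinc finger gene clusters and recruits SETDB1 (log2 fold change 0.99), ZNF263 (0.78) and ZNF394 (0.62). ZNF274 stood at 13.7 ± 1.59 CPM in controls and 27.4 ± 0.69 CPM after knockdown (SD, n = 4; edgeR adjusted p = 6.03e-09). The largest falls were of ZNF213 (-1.19), MZF1 (-1.13), a zinc finger gene named from myeloid cells, and SCAND1 (-1.0), which encodes a SCAN domain without zinc fingers. SCAND1 had overlapping groups and did not pass within the TruSeq libraries (edgeR adjusted p = 0.167). Against Scramble, MZF1 and ZNF394 did not pass, with log2 fold changes of -0.17 and 0.16 (edgeR adjusted p = 0.303 and 0.0918).

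Among 6 genes for KRAB corepressor proteins, TRIM28, the scaffold bound by KRAB domains, stood at 799 ± 24.4 and 843 ± 51.8 CPM (SD, n = 4) and did not pass (log2 fold change 0.08). TRIM28 was higher within the Ligation libraries (0.17, edgeR adjusted p = 0.00151). It did not pass within the TruSeq libraries (-0.03, edgeR adjusted p = 0.7) or against Scramble (0.05, edgeR adjusted p = 0.452). SETDB1, the H3K9 methyltransferase, did not pass against siNTC5 either (-0.03), but was higher than in Scramble by 0.18 (edgeR adjusted p = 0.0191). Its partner gene ATF7IP rose by 0.47 on the log2 scale but did not pass against Scramble (-0.08, edgeR adjusted p = 0.285). Of the HP1 genes, whose proteins bind H3K9me3, CBX3 rose by 0.25, CBX5 rose by 0.15 and CBX1 fell by 0.09 (edgeR adjusted p = 3e-05, 0.00216 and 0.0451). CBX3 and CBX1 had overlapping groups. CBX1 passed within neither kit (edgeR adjusted p = 0.109 and 0.191), and CBX5 did not pass within the TruSeq libraries (0.0685). Against Scramble all 3 were higher, by 0.68, 0.36 and 0.14. Of the 6 genes 4 were called against siNTC5, beside 71.5% of all genes. Within the span of the cluster and 500 kb on either side, the count table held 32 other genes, among them histone and olfactory receptor genes, and 4 were tested. LINC01012, a noncoding RNA gene, rose (log2 fold change 0.56 ± 0.13, edgeR adjusted p = 0.00059). TOB2P1, PGBD1 and ZNF165 did not pass, with log2 fold changes of 0.20, -0.08 and 0.20. TOB2P1 and PGBD1 lie inside the span of the cluster, and ZNF165 lies just outside it. PGBD1 and ZNF165 are SCAN genes that the naming rule left out, so the counts for chromosome 6 members do not include them. PGBD1, which encodes a SCAN domain fused to a transposase-like domain, had 36% of its body in H3K9me3 domains in the control list and 100% in the knockdown list. TOB2P1 lies wholly inside the same control H3K9me3 domain as ZNF192P1 and stood at 0.84 ± 0.14 and 0.98 ± 0.10 CPM (SD, n = 4).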

How the data were processed

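Gene counts of 10 RNA libraries and 7 ChIP domain lists were analysed. The authors deposited unnormalised gene counts, 1 row per gene symbol; per the submitters' processing notes STAR 2.7.1a, featureCounts and hg38 were used, and hg19 is named as well for the Scramble libraries. The strand counted and the handling of reads with several matches are not given in the sources used here. The authors deposited 1 score per domain, whose unit, caller and pooling of replicates are likewise not given; per the submitters' processing notes Bowtie2 2.5.1 and hg38 were used. Other per-sample columns left unused numbered 0.

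Counts were filtered with filterByExpr, scaled by TMM and tested by the quasi-likelihood test of edgeR 4.0.16 (limma 3.58.1, R 4.3.3) with kit and treatment, adjusted by Benjamini and Hochberg over all genes tested, threshold 0.05. The Scramble comparisons were fitted on all 10 libraries over the shared names. The fit was tested on simulated data. Positions came from RefSeq GRCh38.p14 (97.7% of names; ZNF192P1 by synonym), and a gene counted as inside a domain at 50% of its body. Labels share replicate numbers between groups. Same-numbered libraries deviated together from their group means (r across genes 0.1004, 0.4246, 0.3365 and 0.2653). After removal of the kit effect r was -0.191, -0.156, -0.281 and -0.252. The fit that removes group and kit makes r negative by itself, so these values cannot show whether libraries were paired. A replicate block was run as an alternative. DESeq2 1.42.0, other scalings and filters, fits within a kit and fits without single libraries were further alternatives. Library pairs within a group all differed beyond sampling noise.

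The genes and gene lists were chosen with earlier results of these data known. Values in every library are given for ZNF192P1, each tested chromosome 6 member, members elsewhere with an adjusted p under 0.05 that moved by 0.5 or more on the log2 scale, and the 2 members with most counts; of the other lists, up to 3 called genes each way by size. LINC01012 was the only called neighbour. ZNF397, ZNF197, TRIM27, TOB2P1 and the corepressor genes beyond these were named after their values were seen. Log2 fold changes carry edgeR's standard error.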

Additional observations from a re-analysis of the deposited data

Results flagged for a closer look

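In 46 groups of 4 libraries (23 members, control and knockdown), 2 held a library far from the other 3; chance flags about 1 in 20 such groups. ZKSCAN4 stood at 6.61 CPM in siHNRNPK replicate 2 and at 8.18 to 8.32 CPM in the other knockdown libraries. ZSCAN12 stood at 0.88 CPM in siNTC5 replicate 4 and at 1.84 to 1.88 CPM in the other controls. Neither gene passed the test of knockdown.

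For ZSCAN16 and ZSCAN2, both TruSeq knockdown libraries were above both TruSeq controls while both Ligation knockdown libraries were below both Ligation controls. The differences between the kits were -0.50 and -0.65 on the log2 scale (Ligation minus TruSeq), and the interaction test in edgeR did not pass for either (adjusted p = 0.547 and 0.619).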

How the results depend on the processing

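None of the 12 called members changed direction under the alternatives to the comparison with siNTC5; against Scramble alone ZSCAN22 did (0.09). Their calls were lost in 23 cases: 13 for ZSCAN22, 9 for ZSCAN21 and 1 for ZKSCAN5. With the replicate block, 12 members and 5 of the cluster were called and the median difference was 0.017; the block changed no call. Leaving out 1 library at a time gave 10 to 13 called members, 5 to 6 in the cluster (the sixth a fall of ZSCAN12P1) and median differences of -0.019 to 0.115. Asking for a move of 1 or more on the log2 scale left 1 member, which is in the cluster. Without genes that overlap another (chosen after seeing the data), 5 members and 3 of the cluster were called and the median difference was -0.182. It was -0.025 with a mean of at least 50 counts, 0.046 with Scramble as added controls and 0.036 in TruSeq libraries alone. The cause of these shifts was not tested, beyond the fewer genes or libraries used.

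Changes of direction were seen among uncalled members. In Ligation libraries alone the log2 fold change was -0.033 for ZSCAN20, -0.097 for ZSCAN16, 0.005 for ZKSCAN4, -0.024 for ZSCAN31, 0.082 for ZSCAN12 and -0.25 for ZSCAN2. With Scramble added it was -0.21 for ZKSCAN1 and -1.64 for ZSCAN2, and without a filter -0.013 for ZSCAN25. Leaving out 1 library gave -0.238 to 0.03 for ZKSCAN4, -0.056 to 0.163 for ZSCAN2, -0.031 to 0.05 for ZSCAN25 and -0.379 to 0.009 for ZSCAN12. Members in control H3K27me3 domains numbered 3 with any overlap and 0 with scores at or above the list median, and in knockdown domains 1 with any overlap. Depth and the way of counting, which were not separated, limit what can be said of the 9 members with too few counts.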
